A study of Mus musculus with 21 samples.

Results

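The Notch pathway was examined through 36 member genes, given by name and taken from the 22050 entries of an mRNA-seq table of mouse skin keratinocytes. The members are 4 receptors, 5 canonical ligands, 2 Dlk proteins, 4 enzymes that glycosylate the receptors, 4 subunits of gamma-secretase, 4 nuclear partners, 6 Numb proteins and ubiquitin ligases, and 7 target genes. Of the 36, 30 had a mean normalized read count of at least 1 and were tested, among 12782 tested genes in all. The members were listed by their place in the pathway, and no measured value was part of that rule, although earlier results of these data were known when the list was made.

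Notch receptors are single-pass membrane proteins that are activated by ligands on a neighboring cell. Ligand binding leads to cleavage of the receptor, the last cut is made by gamma-secretase within the membrane, and the freed intracellular domain binds the DNA-binding protein RBPJ together with a Mastermind coactivator to switch on genes of the Hes and Hey families. In the skin the pathway is known for promoting the exit of keratinocytes from the basal layer and their differentiation, and for its role in hair follicles.

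The libraries came from GFP+ keratinocytes of dorsal skin. The p16 group was sorted from mice of the genotype K5-rtTA/tet-GFP/tet-p16, which carry a human p16 (CDKN2A) transgene, and the control group from K5-rtTA/tet-GFP mice, which express GFP alone. Both groups carried K5-rtTA and tet-GFP, were of mixed FVB, C57Bl and 129sv background, and received doxycycline in the drinking water from 3 weeks of age for 6 months; the study's methods describe its mice at this time as males. The keratin 5 promoter that drives rtTA limits transgene expression to basal and follicle keratinocytes and their recent progeny. Cells positive for CD140a, CD45 or CD31, markers of fibroblasts, immune cells and endothelium, were gated out, and each sample held about 80000 sorted cells combined from 3 mice. Each group had 4 such samples. Sorting was by GFP and not by p16, so a p16 library can hold cells without p16 protein. According to the methods the 4 samples of a group came from 3 experiments, so at least 2 of them share an experiment and the samples are not all independent. The labels do not say which, and p-values measure the spread between these samples.

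Libraries covered transcript 3′ ends and held between 1760953 and 3414362 reads on genes. The value of a single read lay between 0.74183 and 1.52780 normalized units, and 3 reads, taken as the limit of detection in a library, corresponded to 2.23 to 4.58 units, for counting error only. Reads of the p16 transgene were at 0.7 to 2.5 normalized units in controls. They were at 10.1 in p16 replicate 2, 16 in replicate 3 and 7.4 in replicate 4, whereas the library labelled p16 replicate 1 held 1.6, inside the range of controls. In reads this was 2, 13, 18 and 9 in p16 replicates 1 to 4 and 1 to 3 in controls. The difference was not called (limma adjusted p = 0.0952). p16 replicate 4 stood apart from its group: it was the highest or lowest p16 sample for 62.9% of tested genes, against 41.8% to 48% for the other p16 samples. Among the 30 tested members it was extreme for 17, where p16 replicate 2 was extreme for 18. It was the highest p16 sample for 13 members, against 7, 6 and 4 for p16 replicates 1 to 3, and the lowest for 4. Thy1, a surface protein of T cells and of other cells, was at 582.1 to 791.8 in controls and at 674.8, 1466.3, 827.3 and 2908.2 in p16 cells. The GFP transgene used for sorting was at 5330 ± 809 in controls and fell to 3555 ± 341 in p16 cells (SD, n = 4, limma adjusted p = 0.0167). The keratinocyte label held in every library, with Krt5 between 9045.9 and 17968.5. Of 11 endothelial markers 6 had no read in any sample (Cdh5, Kdr, Erg, Sox17, Emcn and Cldn5), and the summed list was at 7.5 to 8.9 in controls and 10.2 to 14.4 in p16 samples. Of 9 mural cell markers 7 had at most 3 reads in every library, among them Pdgfrb, Rgs5 and Des, while Cspg4 (273 ± 62.6 and 227 ± 26.6) and Acta2 (9.25 ± 2.39 and 8.23 ± 2.25) were measured in both groups. Of 10 fibroblast markers 1 rose and 1 fell, with Dcn at 5.85 ± 3.5 in controls and 104 ± 70.6 in p16 cells (limma adjusted p = 0.000233) and Fbln1 at 86.7 ± 23.2 and 44.6 ± 16.2 (0.0435), while Lum and Mfap5 had no read. No T cell, Langerhans or myeloid marker was called by limma, with 2 T cell markers and 1 of the others at an unadjusted p under 0.05. Of 10 hair matrix and germ markers 2 fell, Hoxc13 and Krt35. The part of these differences in the values of the members was not tested. Further follicle and gland markers are given beside Dtx4.

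Of the Notch pathway genes Dtx4, a Deltex-family ubiquitin ligase, fell in p16 cells, and no member rose (limma on log2(normalized value + 1), Benjamini-Hochberg adjusted p under 0.05 over all tested genes). The 1 call is 3.33% of the 30 tested members, and 3.86% of all tested genes were called (1.24% higher and 2.61% lower), so the share of members called was close to the background. For the members 19 log2 fold changes were positive and 11 negative, with a median of 0.12 against -0.003 for all tested genes, and 28 of 30 lay within 0.5 of no change. The median size of a change, with its sign ignored, was 0.23 among members and 0.18 among all tested genes. At an unadjusted p under 0.05, 4 members were on the higher side (Pofut1, Ncstn, Hes1 and Nrarp) and 1 on the lower side, together 16.7% of those tested, against 15.9% of all tested genes (7.02% higher and 8.93% lower). The values of the groups did not overlap for 3 members (Dtx4, Pofut1 and Hes1), 10% of those tested, against 9.83% of all tested genes (4.19% higher and 5.63% lower). With the directions pooled, both shares were near their backgrounds. By direction, these members were more often on the higher side, whereas all tested genes were more often on the lower side. So few members cannot settle whether the directions differ from the background.

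**Figure D1:**
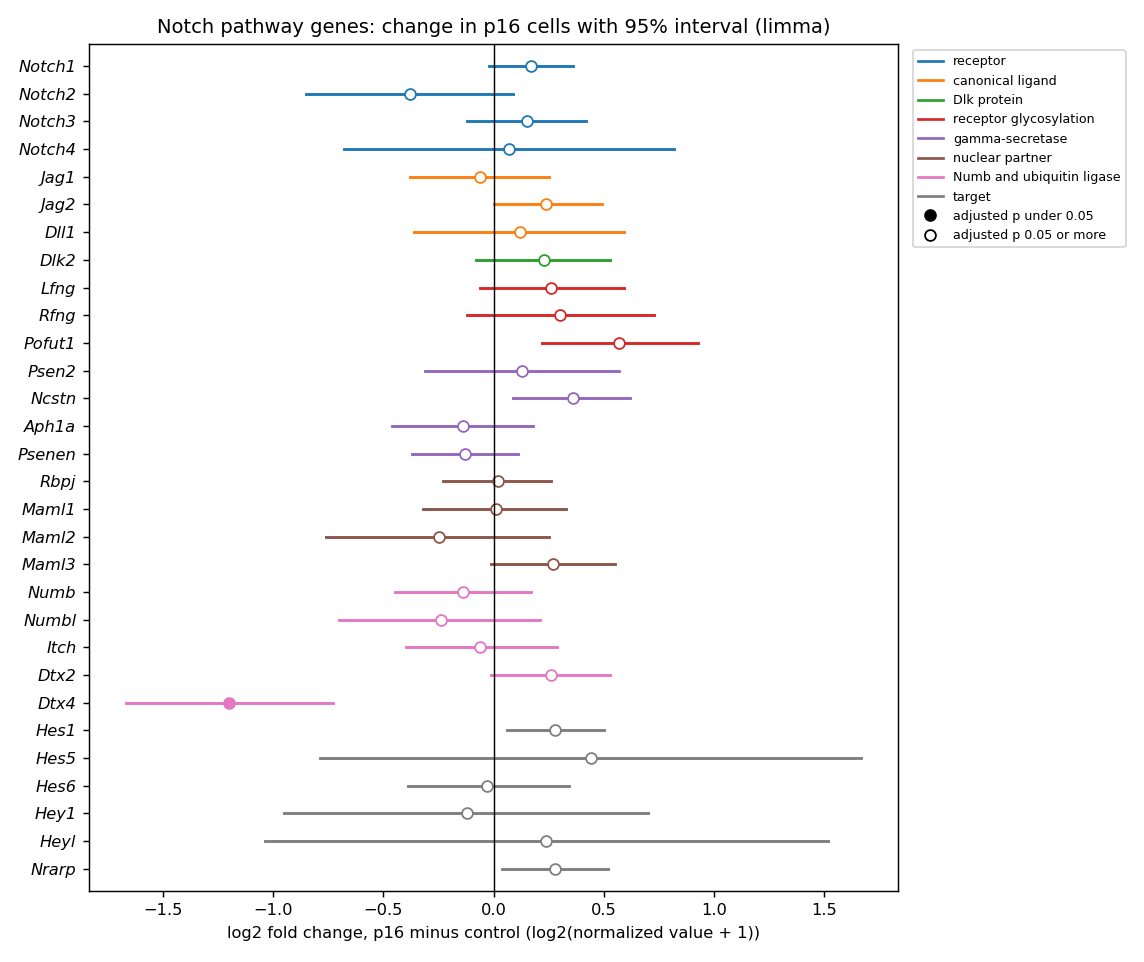
Log2 fold change of each tested Notch pathway gene in p16 against control cells (x axis, on log2(normalized value + 1)), with points for limma estimates, lines for 95% confidence intervals and colors for roles. The filled point, Dtx4 at -1.20, is the only member with an adjusted p under 0.05, and the intervals of Pofut1, Ncstn, Hes1 and Nrarp lie above 0 before adjustment.

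RBPJ binds a short DNA motif, and the start regions of the members were searched for its core. RefSeq promoters (GRCm38.p6) were matched for 30 of the 36 members, with 39 start sites among them. The motif searched was GTGGGAA on the coding strand or TTCCCAC for the same motif on the other strand, in the 250 bases before the start. It was found in 4 of the 39 member promoters, 1 each of Hes5, Hey2, Lfng and Psen2, and in 1779 of the 32851 RefSeq promoters, or 5.42%. The promoters of 3 genes known to respond to Notch in other tissues are shown, 1 from a gene at the limit of detection and 2 from genes measured in every library: Hes5 (chr4:154960673-154960922, plus strand) had 2 matches, Lfng (chr5:140607091-140607340, plus strand) had 1, and Nrarp (chr2:25180508-25180757, plus strand) had 0 in this window. Sequences run 5′ to 3′ and end at the base before the start, and capitals mark the motif on either strand.
Hes5: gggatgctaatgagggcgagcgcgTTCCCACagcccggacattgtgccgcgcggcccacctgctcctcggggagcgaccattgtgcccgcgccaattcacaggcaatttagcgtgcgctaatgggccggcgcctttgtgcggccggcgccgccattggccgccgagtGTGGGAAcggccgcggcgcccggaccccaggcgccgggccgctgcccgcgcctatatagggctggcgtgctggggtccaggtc
Lfng: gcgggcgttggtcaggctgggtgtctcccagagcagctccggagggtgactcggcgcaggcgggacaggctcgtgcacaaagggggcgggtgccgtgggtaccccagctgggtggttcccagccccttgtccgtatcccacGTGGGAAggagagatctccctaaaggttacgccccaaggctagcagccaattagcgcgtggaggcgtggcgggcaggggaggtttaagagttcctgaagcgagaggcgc
Nrarp: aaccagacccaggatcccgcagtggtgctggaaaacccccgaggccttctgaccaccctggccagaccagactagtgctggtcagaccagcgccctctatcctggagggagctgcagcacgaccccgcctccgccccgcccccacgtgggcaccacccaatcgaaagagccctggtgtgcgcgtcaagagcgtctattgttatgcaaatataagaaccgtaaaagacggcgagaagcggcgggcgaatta
In Hes5 the first match is on the other strand, at positions -226 to -220, and the second is on the coding strand, at -83 to -77, counted back from the start. The match in Lfng is on the coding strand at -109 to -103. A match is a description of these letters only. Promoters of Hes1, Hey1, Heyl, Dtx4, Itch and Mfng were not analysed here.

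The receptors bind ligand and carry the signal to the nucleus. All 4 were tested and none was called. Notch1, the main receptor of the epidermis, had normalized read counts of 528.9, 482.5, 446.8 and 501.1 in the controls and 543.7, 527.0, 587.9 and 547.6 in p16 cells, here and below in the order of the replicate numbers. The p16 replicates 1, 3 and 4 lay above every control, while p16 replicate 2 lay just under control replicate 1. The means were 490 ± 34.4 and 552 ± 25.8 (SD, n = 4), a log2 difference of 0.17 with a 95% interval of -0.02 to 0.36 (limma adjusted p = 0.371; exact two-sided permutation p = 0.0571, where 4 against 4 samples allow 0.0286).

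Notch2 had 62.3, 51.3, 51.8 and 44.3 in controls and 37.6, 30.4, 34.6 and 63.3 in p16 cells. The first 3 p16 replicates lay below all controls and p16 replicate 4 lay above them all. The log2 difference was -0.38 (-0.85 to 0.09) with an adjusted p of 0.441 in limma. Without p16 replicate 4, the library that stood apart, it was -0.60 with an adjusted p of 0.0954. The receptor was therefore not called with or without that library, but the size of its log2 difference changed by more than 1.5 times.

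Notch3, found in suprabasal keratinocytes as well as in mural cells, had 291.5, 227.2, 353.3 and 319.3 in controls and 351.0, 299.8, 315.7 and 339.6 in p16 cells. The p16 values all lay inside the control range, and the log2 difference was 0.15 (-0.12 to 0.42, limma adjusted p = 0.646), or 0.02 without control replicate 2 and 0.24 without control replicate 3. Notch4, best known from endothelium, was near the limit of detection, with at most 7 reads in a library and 4.35 ± 1.19 normalized reads in controls against 4.53 ± 0.877 in p16 cells (SD, n = 4). Its interval, -0.68 to 0.82 on the log2 scale, spans sizable changes in either direction, so a difference was not detectable at this depth. Annotated transcripts overlap the last 1000 bases of Notch1 and Notch3 on the opposite strand, and how the counting treated strand is not given in the sources used here. The same holds for Dlk2, Aph1a, Maml1, Hes5 and Nrarp.

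Ligands present the signal. Jag1 and Jag2, the Serrate-type ligands, and Dll1, a Delta-type ligand of basal keratinocytes, were measured in every library. Jag1 had 212.9, 219.5, 157.9 and 183.3 in controls and 235.1, 187.4, 168.5 and 152.1 in p16 cells. The groups overlapped over most of their range, with a log2 difference of -0.06 (-0.38 to 0.25, limma adjusted p = 0.892). Jag2 had 194.4, 243.8, 246.4 and 271.9 in controls and 310.2, 284.2, 260.7 and 273.0 in p16 cells. Only p16 replicate 3 lay below the highest control, the means were 239 ± 32.4 and 282 ± 21.1 (SD, n = 4), and the log2 difference of 0.24 (SE 0.11) had a limma adjusted p of 0.316 and an exact two-sided permutation p of 0.0571. Without control replicate 1 it was 0.15. Dll1 had 53.4, 101.4, 61.8 and 51.9 in controls and 70.4, 60.9, 57.6 and 97.8 in p16 cells. A single library of each group, control replicate 2 and p16 replicate 4, was well above the rest, and the log2 difference of 0.12 (-0.36 to 0.59) was smaller than that spread (limma adjusted p = 0.871).

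The remaining ligands were hardly seen. Dll3, a divergent member that does not activate receptors on other cells, had 6 reads over all libraries and no more than 2 in any. Dll4, the main ligand of blood vessels, had 1 read in all, in control replicate 2. Both had a mean under 1 and were not tested, and with no library above 3 reads no fold is given. Among the Dlk proteins, which resemble Delta but lack the receptor-binding DSL domain, Dlk1 likewise had 1 read in all. Dlk2, by contrast, was readily measured, at 283 ± 41.1 in controls and 334 ± 72.4 in p16 cells (SD, n = 4). Its p16 mean was raised by replicate 4, at 437.4 against 281.4 to 331.0 in the other p16 libraries, and the log2 difference was 0.23 (-0.08 to 0.53, limma adjusted p = 0.497), or 0.09 without that library and 0.15 without control replicate 1.

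**Figure D2:**
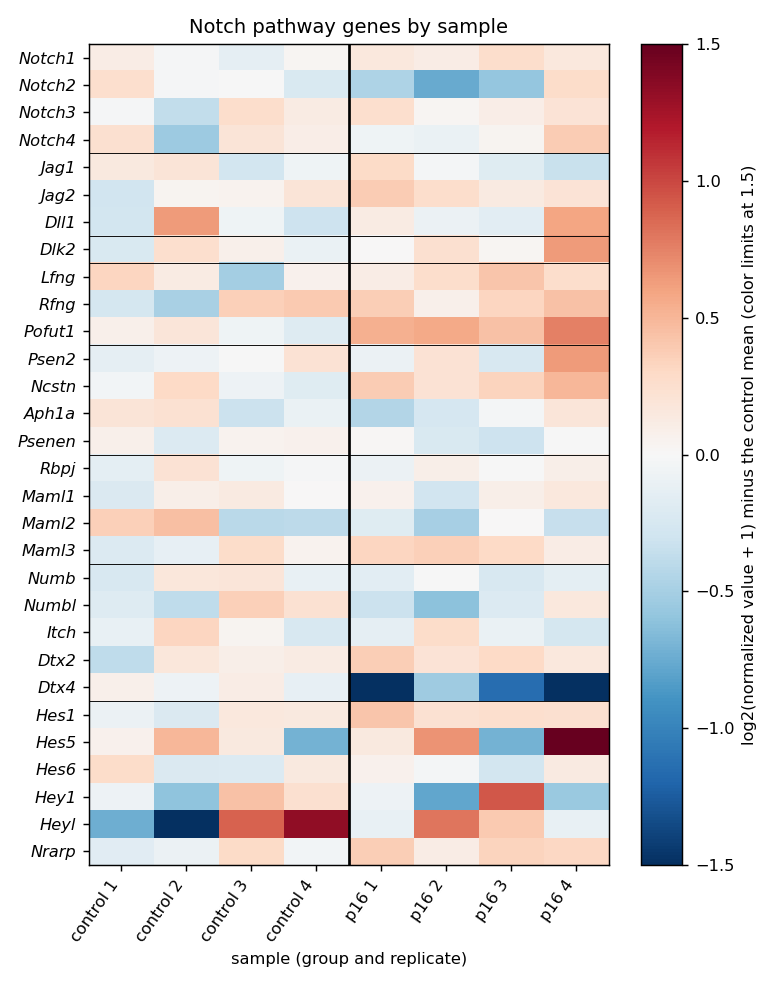
Value of each tested Notch pathway gene (rows, grouped by role) in each sample (columns) as log2(normalized value + 1) minus the control mean, with colors limited at 1.5. Dtx4 is the row with low values in all 4 p16 samples, Pofut1 is high in all 4, and Hes5 and Heyl, with at most 5 reads in a library, vary most.

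Receptor glycosylation sets which ligands a receptor answers. POFUT1 adds the first fucose to the EGF repeats of Notch, and the Fringe enzymes LFNG, MFNG and RFNG lengthen it. Pofut1 had normalized read counts of 37.1, 39.8, 33.4 and 30.6 in controls, from 20 to 50 reads, and of 51.2, 52.3, 47.9 and 60.0 in p16 cells, from 54 to 73 reads. Every p16 sample lay above every control. The mean was 35.2 ± 4.05 in controls and 52.9 ± 5.12 in p16 cells (SD, n = 4), a ratio of 1.5, and the log2 difference of 0.57 (SE 0.17, 95% interval 0.22 to 0.93) was the largest positive one among the tested members. It did not pass the threshold (limma p = 0.00365, adjusted p = 0.0755; exact two-sided permutation p = 0.0286, the smallest possible), and its adjusted p ranged from 0.0595 to 0.207 over 15 other fits. Without p16 replicate 1 and without p16 replicate 4 the log2 difference was 0.59 and 0.51.

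Of the Fringe genes, Lfng was at 195 ± 44 in controls and 230 ± 20 in p16 cells (SD, n = 4). Control replicate 3, at 133.6, was lowest, and the p16 values of 205.5 to 254.5 overlapped those of the other controls, which reached 238.1. Rfng was at 63.8 ± 19.2 and 76.5 ± 8.25, and its controls fell into a low pair (51.2 and 43.6) and a high pair (79.3 and 81.0) that spanned most p16 values. The log2 differences were 0.26 and 0.30, with limma adjusted p values of 0.442 and 0.511. A single library moved each: Lfng was at 0.09 without control replicate 3 and Rfng at 0.14 without control replicate 2. Mfng had 1 read in all, in p16 replicate 1, and was not tested. All 3 tested genes of this role had positive differences and none was called.

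**Figure D3:**
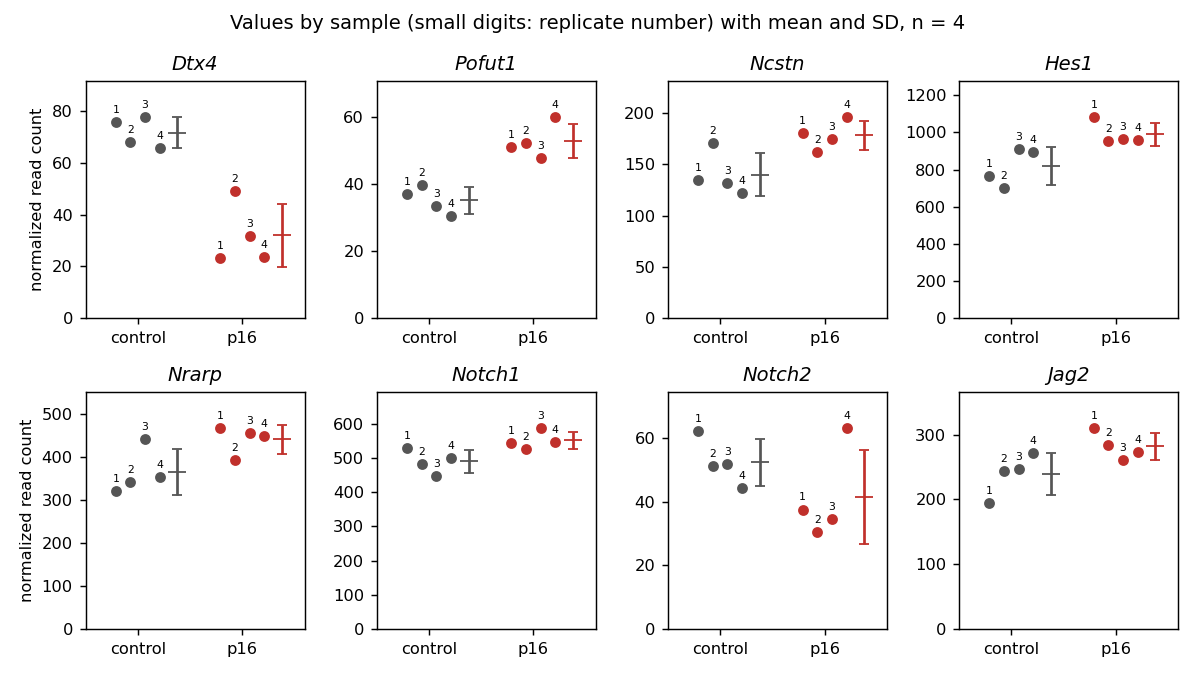
Normalized read count (y axes, starting at 0) of 8 Notch pathway genes in each control and p16 sample, with replicate numbers above the points and bars for the mean and SD (n = 4). The groups separate for Dtx4, Pofut1 and Hes1, while Ncstn, Nrarp, Notch1, Notch2 and Jag2 overlap by at least 1 sample.

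Gamma-secretase cuts the receptor within the membrane. Its subunits among the members were the catalytic presenilin Psen2, the substrate-binding Ncstn (nicastrin), the scaffold Aph1a and Psenen (Pen-2). Ncstn had 134.3, 170.7, 132.0 and 122.2 in controls and 180.7, 161.6, 174.7 and 195.7 in p16 cells. Control replicate 2 was the one control above a p16 sample. The means were 140 ± 21.3 and 178 ± 14.1 (SD, n = 4), and the log2 difference of 0.36 (SE 0.12) did not pass (limma p = 0.012, adjusted p = 0.151; exact two-sided permutation p = 0.0571), with an adjusted p of 0.0542 when control replicate 2 was left out and up to 0.37 in the other fits. Psen2 was at 36.9 ± 4.16 and 41.5 ± 11.9, Aph1a at 289 ± 51 and 263 ± 49.1, and Psenen at 276 ± 25.1 and 253 ± 29 (SD, n = 4). Their log2 differences of 0.13, -0.14 and -0.13 had limma adjusted p values of 0.838, 0.737 and 0.645 and were of both signs. Leaving out single libraries moved Aph1a between -0.25 (without control replicate 3) and -0.03 (without p16 replicate 1) and Psenen between -0.20 (without control replicate 2) and -0.07 (without p16 replicate 3). Aph1b and Aph1c, paralogs of Aph1a, were at 36.5 ± 13 and 14.2 ± 4.62 in controls and 47.1 ± 14.7 and 21.3 ± 5.58 in p16 cells (SD, n = 4, limma adjusted p = 0.571 and 0.336).

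Of the nuclear partners, Rbpj, the gene for the DNA-binding protein of the pathway, had 131.3, 169.4, 138.6 and 143.6 in controls and 135.9, 153.8, 144.5 and 153.8 in p16 cells. All p16 values lay inside the control range. The log2 difference was 0.02, with an interval of -0.23 to 0.26 that bounds the change that could have been missed (limma adjusted p = 0.969). The Mastermind coactivators were also not called. Maml1 was at 64.3 ± 6.75 and 64.8 ± 8.55, with a log2 difference of 0.01 (-0.32 to 0.33). Maml2 was at 36 ± 11.6 and 29.1 ± 4.47 and Maml3 at 107 ± 16.2 and 129 ± 9.42 (SD, n = 4). The log2 differences of Maml2 and Maml3 were -0.25 and 0.27, with limma adjusted p values of 0.681 and 0.329, and differed in sign. Maml2 ran from -0.39 without control replicate 3 or 4 to -0.11 without control replicate 2.

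Numb and Numbl encode membrane adaptors that restrain Notch by promoting its removal from the surface, and Itch and the Deltex genes encode ubiquitin ligases that act on Notch traffic. Dtx4 was the gene that changed. It had normalized read counts of 75.7, 68.0, 77.7 and 65.7 in controls, from 43 to 102 reads, and of 23.2, 49.2, 31.9 and 23.8 in p16 cells, from 29 to 63 reads. The controls were close together, every p16 sample lay below every control, and p16 replicate 2 was the highest of its group. The mean was 71.8 ± 5.82 in controls and 32 ± 12.1 in p16 cells (SD, n = 4), so the control mean was 2.24-fold the p16 mean. The log2 difference was -1.20 (SE 0.22, 95% interval -1.67 to -0.73; limma adjusted p = 0.0064; exact two-sided permutation p = 0.0286). Dtx4 lies at chr19:12466338-12501454 on the minus strand of GRCm38.

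The call for Dtx4 held in 14 of 15 other fits, among them all 8 that left out a single library, where the log2 difference lay between -1.43 and -1.07. Without p16 replicate 1, whose transgene was at the control level, it was -1.07 (limma adjusted p = 0.0257), and without p16 replicate 4 it was -1.09 (limma adjusted p = 0.00881). The call was lost, at -1.18 with an adjusted p of 0.0527, when replicate 3 of both groups was left out, whose labels word the library protocol differently.

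Some markers of the hair follicle, the sebaceous gland and melanocytes were also lower in p16 cells. The summed list of 12 hair follicle stem cell markers was at 11954 to 16304 in controls and 9240 to 9402 in p16 samples. Most of this sum was Krt15 alone, at 8442.8 to 13136.4 in controls and 6607.4 to 7834.0 in p16 samples (log2 difference -0.56). Postn, Ptn and Lgr5 were not called, with log2 differences of 0.73, -0.08 and -0.69, so Postn was on the higher side. The other 9 of the 12 markers fell and none was called higher, with a median log2 difference of -1.45 over the list. Cd34 for example, a surface marker of bulge stem cells, was at 169 ± 51.4 in controls and 11.8 ± 4.08 in p16 cells (SD, n = 4, limma adjusted p = 3.27e-06). Of 10 sebaceous gland markers 7 fell and none rose, with a median of -1.80. The sum was at 2240, 1865, 2288 and 2341 in control replicates 1 to 4 and at 819, 1140, 924 and 936 in p16 replicates 1 to 4. Replicate 2 is again the highest p16 sample, whereas control replicate 4, the lowest control for Dtx4, had the highest sebaceous sum. Scd1, a lipid desaturase abundant in sebocytes, was at 768 ± 63.2 and 280 ± 45.5 (limma adjusted p = 1.11e-05), and Awat1, a wax synthase of the gland, had at most 2 reads in any library. Of 10 melanocyte markers 2 fell, Dct and Tyrp1, and Oca2 had no read in any sample. Over the 8 tested the median log2 difference was -1.76. At an unadjusted limma p under 0.05, 6 of them were lower, against 8.93% of all tested genes. The sum was at 141 to 554 in controls and 51.7 to 152 in p16 samples. The part of these compartments in the Dtx4 result was not tested, and in bulk libraries fewer cells of a type and less RNA per cell cannot be told apart.

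**Figure D4:**
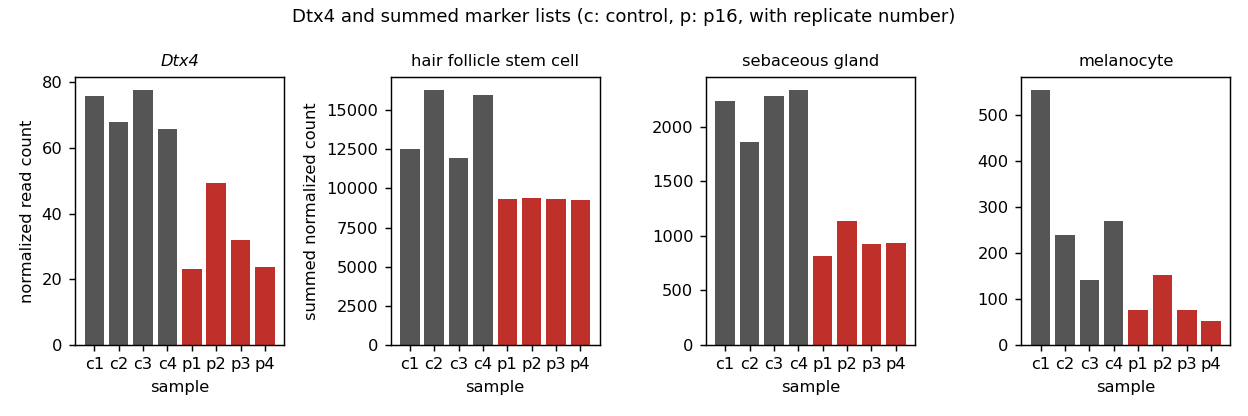
Normalized read count of Dtx4 and summed normalized counts of 3 marker lists (bars, from 0) in control replicates 1 to 4 (c1 to c4) and p16 replicates 1 to 4 (p1 to p4). The p16 bars of Dtx4 and of the hair follicle stem cell and sebaceous gland lists are all below the control bars, and the melanocyte sums overlap, with p16 replicate 2 at 152 and control replicate 3 at 141.

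No other gene of this role was called. Dtx2, another Deltex ligase, had 146.9, 215.6, 204.6 and 209.3 in controls and 247.9, 221.7, 236.7 and 213.8 in p16 cells, on the opposite side from Dtx4. The lowest p16 value lay just under the highest control, control replicate 1 lay far below its group, and the log2 difference of 0.26 (-0.01 to 0.53) had a limma adjusted p of 0.345. Dtx1 had no read in any library, which at 3 reads per library allows up to 4.58 normalized units. Numb was at 76.9 ± 11.3 and 69.4 ± 4.61, Numbl at 53.2 ± 12.8 and 44.7 ± 10.3, and Itch at 86.2 ± 15 and 82.8 ± 14.1 (SD, n = 4). Their log2 differences of -0.14, -0.24 and -0.06 were each within the spread of the samples, with limma adjusted p values of 0.721, 0.649 and 0.918. Leaving out single libraries moved Numb between -0.22 (without control replicate 1) and -0.08 (without control replicate 2 or 3) and Numbl between -0.38 (without p16 replicate 4) and -0.12 (without p16 replicate 2).

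The targets read out receptor activity in many tissues. Hes1, a basic helix-loop-helix repressor and the best known Notch target of keratinocytes, had 765.6, 699.4, 908.7 and 896.8 in controls and 1081.8, 954.1, 965.6 and 959.5 in p16 cells, from 545 to 1353 reads. All p16 samples lay above all controls, by a margin that was small beside the spread of the controls. The mean was 818 ± 102 in controls and 990 ± 61.2 in p16 cells (SD, n = 4), a ratio of 1.21. The log2 difference of 0.28 (SE 0.10, 95% interval 0.06 to 0.50) did not pass the threshold (limma p = 0.0148, adjusted p = 0.171; exact two-sided permutation p = 0.0286), nor did it in 15 other fits, where the adjusted p lay between 0.122 and 0.412. Hes1 lies at chr16:30064384-30067796 on the plus strand of GRCm38.

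Nrarp, which encodes an ankyrin-repeat protein that is induced by Notch and lowers its signal, had 321.2, 341.4, 442.7 and 352.9 in controls and 467.7, 391.9, 456.6 and 448.1 in p16 cells. Control replicate 3 was above p16 replicate 2 and the other samples separated. The means were 365 ± 53.7 and 441 ± 33.8 (SD, n = 4), also a ratio of 1.21, and the log2 difference of 0.28 (SE 0.11) gave a limma adjusted p of 0.216 and an exact two-sided permutation p of 0.0571. Its adjusted p was 0.0765 without control replicate 3 and 0.449 without control replicate 1, and no fit passed.

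The other Hes and Hey genes gave little. Hes6, a family member that is not a typical Notch target and can oppose Hes1, was at 55.8 ± 9.75 and 54.4 ± 6.74 (SD, n = 4), with a log2 difference of -0.03 (-0.39 to 0.34). Hey1 was at 10.6 ± 3.37 and 10.5 ± 6.81, from at most 23 reads, with a log2 difference of -0.12 (-0.95 to 0.70). Its p16 mean was raised by replicate 3, at 20.4, and without that library the difference was -0.47. Hes5 and Heyl had at most 5 reads in any library, and Hey2 had none in any. The intervals of Hes5 (-0.79 to 1.67) and Heyl (-1.04 to 1.52) were the widest of all tested members, so changes of these genes were hardly bounded at this depth. The Hes5 promoter printed above thus belongs to a gene at the limit of detection in these cells, and those of Lfng and Nrarp to genes far above it.

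Markers of the keratinocyte layers, between which Notch signaling is known to act, are given beside the targets. Of 10 differentiation markers 1 rose and 2 fell, and the summed list was at 7191 to 9909 in controls and 7547 to 11276 in p16 samples. Lor, which encodes the cornified envelope protein loricrin, was at 91.8 ± 45.1 in controls and 303 ± 137 in p16 cells (SD, n = 4, limma adjusted p = 0.00951). Ivl, for involucrin of the same envelope, fell from 48.2 ± 7.08 to 23.4 ± 7.88 and Sbsn, for the secreted protein suprabasin, from 1052 ± 335 to 536 ± 27.6 (limma adjusted p = 0.0215 and 0.00905). The main suprabasal keratins were not called, with Krt10 at 3285 ± 228 and 3682 ± 876 and Krt1 at 1597 ± 377 and 2366 ± 547 (limma adjusted p = 0.721 and 0.0952). Of 8 basal markers 1 rose, Itga3, a laminin-binding integrin, at 815 ± 51.9 and 1262 ± 197 (limma adjusted p = 0.00469). The other 7 were not called and had log2 differences of both signs. Krt5, Krt14 and Itgb1 were at -0.33, -0.23 and -0.02, and Itgb4, Itga6, Col17a1 and Trp63 at 0.37, 0.21, 0.12 and 0.09. The summed basal list was at 24729 to 41830 in controls and 26901 to 30853 in p16 samples. The part of these layer markers in the values of Hes1 and Nrarp was not tested.

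Of 32 further genes of the pathway, from sheddases and ligand-modifying ubiquitin ligases to corepressors, 28 were tested and none was called by limma. At an unadjusted p under 0.05 there were 6 of the 28 (2 higher, 4 lower), and the median log2 difference was 0.01. Of all tested genes 3.86% were called, and 15.9% had an unadjusted p under 0.05 (7.02% higher and 8.93% lower). At these shares the absence of a call among 28 genes says little about them. Ncor1, a transcriptional corepressor, was at 618 ± 96.8 in controls and 482 ± 94.7 in p16 cells (SD, n = 4), a log2 difference of -0.37 with a limma adjusted p of 0.224. Poglut1, which adds glucose to Notch EGF repeats, was at 129 ± 6.04 and 155 ± 10.1, and Crebbp, a histone acetyltransferase that joins the active complex, at 414 ± 49.7 and 330 ± 17 (limma adjusted p = 0.243 and 0.12). Their groups did not overlap for Poglut1, while for Crebbp 1 control was within the p16 range. These genes, like Aph1b and Aph1c, were named after their values were seen.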

How the data were processed

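GFP+ keratinocyte mRNA was measured in 4 control and 4 p16 samples, grouped by their labels; 13 further samples of a second profiling were not analysed here. The authors used an adapted CEL-Seq2 protocol, which reads the 3′ ends of transcripts, and trimmed reads with Cutadapt; the submitters' processing notes name TopHat2, HTSeq, DESeq2 and GRCm38. The signal the authors deposited is a gene's read count after division by the sample's size factor, given to 1 decimal. Dividing by the value of 1 read gave whole reads for 100% of the values (tolerance 0.06). Columns with the authors' group means, fold changes and p-values were not used.

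Genes with a mean of at least 1 were compared in limma 3.58.1 (eBayes with trend, R 4.3.3) on log2(normalized value + 1), without a block, with Benjamini-Hochberg adjustment over all tested genes and calls at 0.05. On this scale the change of low genes is understated. Exact two-sided permutation tests used the normalized values and their p-values were not adjusted. As alternatives the recovered reads were tested with edgeR 4.0.16 (160 genes higher, 299 lower) and DESeq2 1.42.0 (188 and 355), where limma gave 159 and 334. Scripts were tested on simulated data. Gene coordinates come from GENCODE M21 (GRCm38).

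Per-sample values are given for members that were called, did not overlap between the groups, or belong to Notch1, Notch2, Notch3, Jag1, Jag2, Dll1, Rbpj, Hes1 and Nrarp; Ncstn and Dtx2 were added after their values were seen. The members and gene lists were chosen with earlier results of these data known. Values of 1 further pathway gene are not reported here.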

Additional observations from a re-analysis of the deposited data

Results flagged for a closer look

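In 60 groups of 4 libraries, 1 for each tested Notch pathway gene and condition, 3 held a library far from the rest by Dixon's test at its 95% critical value, and chance alone flags about 1 in 20 groups. Psenen, a gamma-secretase subunit, was at 238.7 in control replicate 2 and at 286.5 to 290.8 in the other controls. Dtx2, a Deltex ubiquitin ligase, was at 146.9 in control replicate 1 and at 204.6 to 215.6 in the others, and its log2 difference without that library was 0.13. Hes1 was at 1081.8 in p16 replicate 1 and at 954.1 to 965.6 in the other p16 samples. That library is the p16 library whose transgene was at the control level, and without it the log2 difference of Hes1 was 0.24 (limma adjusted p = 0.412).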

How the results depend on the processing

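Dtx4 was the 1 member called, and no member was called higher, in every alternative tried except 2: without the replicates 3 of both groups 0 members were lower, and at an unadjusted p under 0.05 4 were higher. Over all genes, 159 higher and 334 lower calls became 66 and 157 without the replicates 3 and 897 and 1141 at an unadjusted p. Leaving out single libraries gave 69 to 196 higher and 177 to 343 lower calls, with the counts most reduced without control replicate 1 (86 and 177), p16 replicate 1 (69 and 192) and p16 replicate 3 (99 higher). Of 446 fits of single members, 420 kept direction and call, 1 lost the call and 25 changed sign, in 10 genes. Under total count scaling Hes6 was at 0.01, and in DESeq2 Heyl was at -0.11. Without single libraries the log2 differences ran from -0.11 to 0.15 for Notch4, -0.18 to 0.02 for Jag1, -0.04 to 0.33 for Dll1, -0.04 to 0.25 for Psen2, -0.03 to 0.09 for Rbpj, -0.07 to 0.11 for Maml1, -0.16 to 0.05 for Itch, -0.10 to 0.06 for Hes6, -0.47 to 0.10 for Hey1 and -0.26 to 0.69 for Heyl. The cause was not tested.

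Deviations of same-numbered samples correlated at 0.05, 0.00, 0.05 and 0.08, and those of differently numbered samples at -0.10 to 0.06. All were small, they do not settle whether the numbers pair the samples, and the main fit did not pair them. With the replicate number as a block, 216 genes were higher and 392 lower, and of the members Dtx4 remained the call (-1.20, limma adjusted p = 0.00507). Depth limits Notch4, Hes5 and Heyl, with at most 7 reads in a library, and the 6 untested members.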
